A study of Mus musculus with 9 samples.

Results

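The 46 genes described here encode the secreted Wnt ligands, their Frizzled receptors, the R-spondins, the secreted antagonists and 3 intracellular genes of the same pathway, out of 47729 genes in the count table. They were taken by symbol among the protein-coding genes. They comprise 19 Wnt ligands, 10 Frizzled receptors, 4 R-spondins, 10 antagonists (Dkk1, Dkk2, Dkk3, Dkk4, Frzb, Sfrp1, Sfrp2, Sfrp4, Sfrp5 and Wif1) and the feedback or nuclear genes Axin2, Lef1 and Tcf7. Their RNA was counted in C2C12, an established mouse myoblast line whose cells stop dividing and fuse into myotubes when serum is changed. Of the 3 populations, one was a control that had received a non-target sgRNA (WT), and in the others CRISPR-Cas9 had been used to knock out Per1 (Per1KO) or Per2 (Per2KO), genes for repressors of the circadian clock. Each population was sampled in growth medium with 10% FBS (day 0) and on days 3 and 5 in medium with 5% horse serum. There was 1 library for each population and day, 9 in all, so values of 1 genotype on 1 day stand without replicates. Whether a population descends from a single clone is not given in the sources used here, and p-values speak of these 3 populations.

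Wnt proteins are lipid-modified secreted ligands that bind Frizzled receptors together with LRP co-receptors, which keeps beta-catenin from being degraded and lets it act with the DNA-binding proteins of the TCF and LEF family. R-spondins raise the level of Frizzled receptors at the cell surface, whereas SFRP and WIF proteins bind the ligands and most Dickkopf (DKK) proteins bind the LRP co-receptors. In skeletal muscle the pathway is known for roles in the formation of the embryonic muscle precursors, in regeneration and in the fusion of myoblasts. Axin2 is a widely used readout of beta-catenin signalling, since the pathway induces it and its product acts back as an inhibitor.

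The WT libraries held 5020385 to 6773320 counts, and those of the knockouts 41997763 to 48051824. The titles of the WT libraries alone carry a suffix that may name a sequencing lane. Wherever a knockout is set against WT, depth and what this suffix marks therefore cannot be told apart from genotype. The limit that a count of 0 leaves, taken as 3 counts, was 0.424 to 0.660 CPM for WT and 0.0591 to 0.0731 CPM for the knockouts. CPM here are counts relative to library size after scaling with the trimmed mean of M values (TMM), and all intervals and floors cover counting error only. Per1 RNA was at 20.9 to 32.4 CPM in Per1KO against 31.01 to 35.6 in WT, and Per2 RNA at 3.504 to 9.13 CPM in Per2KO against 9.74 to 20.5 in WT, so neither transcript was absent from its knockout. Per1 was at 16.5, 30.4 and 32.9 CPM in Per2KO on days 0, 3 and 5, against 20.9, 32.4 and 28.9 in Per1KO, and Per2 was at 6.59 to 10.6 CPM in Per1KO. The ranges of the knockouts overlapped for both genes, so these levels do not check which knockout a library is. The labels name whole muscle as tissue beside the cell line. The 6 myoblast markers summed to 2856 to 8380 CPM in every library, against at most 3.62 CPM for 4 endothelial and 2.86 CPM for 4 macrophage markers. Other lists were higher: 6 fibroblast markers summed to 161 to 1310 CPM (mostly Dcn and Ly6a, with Thy1 and Tcf21 at 0 in every library), 4 neural markers to 92.1 to 287 CPM, 5 chondrocyte markers to 49.9 to 153 CPM (nearly all Sox9), 6 osteoblast markers to 30.7 to 70.8 CPM and 6 adipocyte markers to 9.67 to 30.9 CPM. Dcn, a matrix proteoglycan gene, rose with differentiation (5.25 ± 0.71 on the log2 scale on day 5, adjusted p = 0.000902).

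The 8 myotube markers summed to 771, 21639 and 22727 CPM in WT on days 0, 3 and 5, to 44.7, 9381 and 16082 in Per1KO, and to 21.6, 8434 and 12470 in Per2KO. WT was the highest on every day. Of these 8 markers, edgeR's test called 2 lower in each knockout, beside 10.1% of all genes in Per1KO and 10.6% in Per2KO. That test gave 6 markers in Per1KO and 7 in Per2KO an unadjusted p under 0.05, beside 4661 and 4681 of all 13324 genes. The median shift of the 8 from WT was large, at -2.17 for Per1KO and -2.58 for Per2KO on the log2 scale. DESeq2's Wald test called 3 and 6 of the markers, beside 25.5% and 26% of all genes. The 6 proliferation markers summed to 1222, 460 and 160 CPM in WT, 1921, 600.3 and 292 in Per1KO, and 1394, 627 and 311 in Per2KO. The knockouts were higher on every day, with Top2a called higher in both (0.67 ± 0.15, adjusted p = 0.0195, and 0.58 ± 0.15, adjusted p = 0.0311) and Cdk1 in Per1KO (0.85 ± 0.23, adjusted p = 0.0387). These shifts stand beside each difference from WT given below, and their part in it was not tested.

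Of the 46 genes, 34 had more than 3 counts in at least 1 library. These were 11 of 19 ligands, 9 of 10 Frizzled receptors, 4 of 4 R-spondins, 7 of 10 antagonists and all 3 nuclear or feedback genes. Another 6 genes had no count in any library, namely Wnt2, Wnt3a, Wnt9b, Fzd10, Dkk4 and Sfrp5. A further 6 never passed 3 counts in a library: Wnt1, Wnt3, Wnt7a, Wnt8a, Wnt8b and Dkk1, with at most 0.220 CPM. There are 4 pairs of adjacent Wnt genes, and in 3 of them 1 member was tested while the other was not; Wnt3 and Wnt9b, 24328 bases apart on chromosome 11, never passed 3 counts. Wnt9a lies 16175 bases from Wnt3a, which had no count, on chromosome 11, Wnt10a lies 6193 bases from Wnt6 on chromosome 1, and Wnt10b lies 11706 bases from Wnt1 on chromosome 15. A total of 24 genes reached at least 1 CPM before scaling in at least 3 libraries and were tested, and the other 22 were not.

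**Figure D1:**
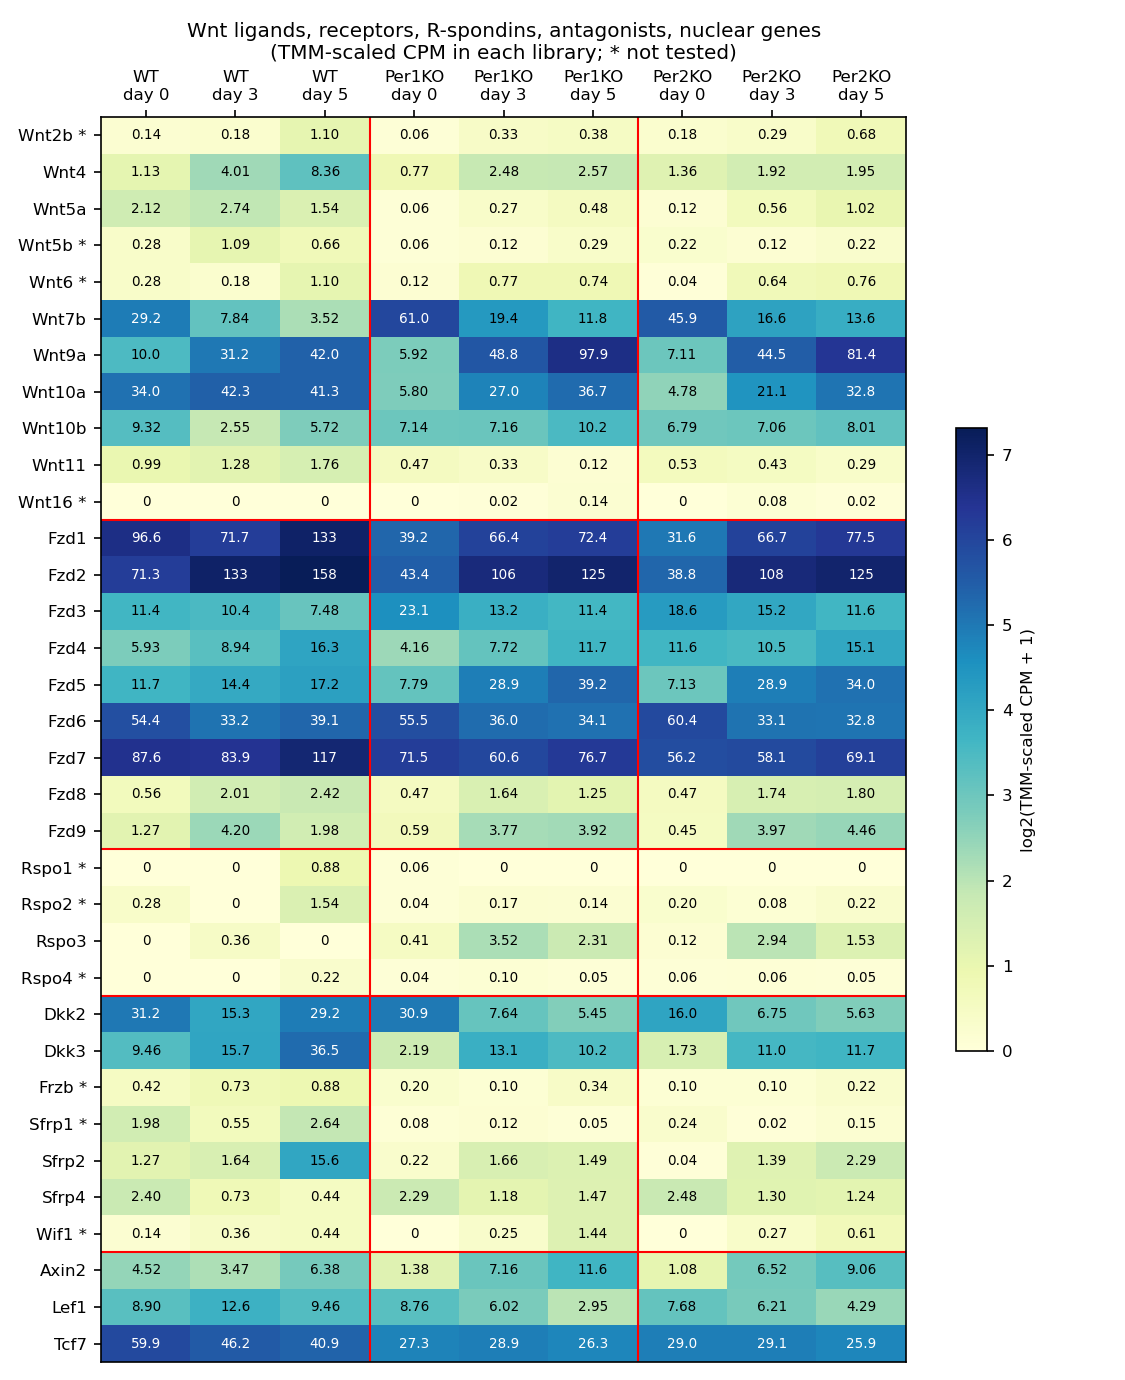
TMM-scaled CPM of the 34 genes with more than 3 counts in at least 1 library, as a number and as colour for log2(CPM + 1), by library (columns) and role (blocks). Fzd1, Fzd2, Fzd6 and Fzd7 are dark in every column, Wnt9a darkens with the day of differentiation, and Wnt7b fades with it.

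Differentiation changed most of the tested genes. On day 5 against day 0, with the 3 populations standing in for replicates, edgeR's quasi-likelihood test called 14 of the 24 higher and 6 lower at a Benjamini-Hochberg adjusted p under 0.05, where 46.1% of all 13324 tested genes were called (23.2% higher and 22.9% lower). On day 3 against day 0 it called 10 higher and 4 lower, beside 35% of all genes (18.1% higher and 16.9% lower). Fzd8 and Rspo3, called higher on both days, reached the filter's level in libraries of days 3 and 5 only. Their day differences were thus favoured by the filter. The median log2 fold change over the tested members was 1.25 on day 5 and 0.83 on day 3, against -0.01 over all genes on both days. Between days 3 and 5 no member was called, and 6 had an unadjusted p under 0.05, as did 1975 of all 13324 tested genes. The same test called 238 genes, which is 1.79% of those tested (0.698% higher and 1.09% lower), and DESeq2's Wald test also called no member. With 1 knockout left out, fewer members were called on day 5, namely 6 without Per1KO (17.3% of all genes) and 8 without Per2KO (22.2%). In bulk RNA, fewer cells that express a gene and less RNA per cell cannot be told apart.

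Each knockout was compared with the same 3 WT libraries, with the 3 days standing in for replicates. In Per1KO, 9 of the 24 tested members were called, 3 higher and 6 lower, where 19.3% of all tested genes were called (9.26% higher and 10.1% lower). In Per2KO, 9 were called as well, 3 higher and 6 lower, beside 19.9% of all genes (9.31% higher and 10.6% lower). Among the tested members, Wnt11 reached the filter's level in WT libraries only, Rspo3 in knockout libraries only, and Wnt5a in WT and 1 Per2KO library, so their differences were favoured by the filter. Without these 3, a count added after the values were seen, 6 of 21 were called in Per1KO and 7 of 21 in Per2KO. The members called in both were Wnt7b, Fzd3 and Rspo3, which were higher, and Wnt5a, Fzd2, Fzd7, Dkk3 and Tcf7, which were lower; Wnt11 passed the threshold only in the Per1KO comparison and Dkk2 only in that of Per2KO. These are 8 members called in both and 2 in 1 only. Over all 13324 tested genes, 2239 were called in both (1073 higher and 1166 lower) and 749 in 1 only. The comparisons share their controls, so these lists are not independent of each other. Between the knockouts no member was called, and only Fzd4 had an unadjusted p under 0.05; over all genes edgeR's test called 0% of them, with 88 at an unadjusted p under 0.05, and DESeq2's Wald test called 1 gene and no member. The counts rested on the number of days: without day 3, 1 member was called in Per1KO (6.85% of all genes) and 2 in Per2KO (6.22%), and without day 5 the counts were 1 (5.29%) and 0 (5.82%).

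**Figure D2:**
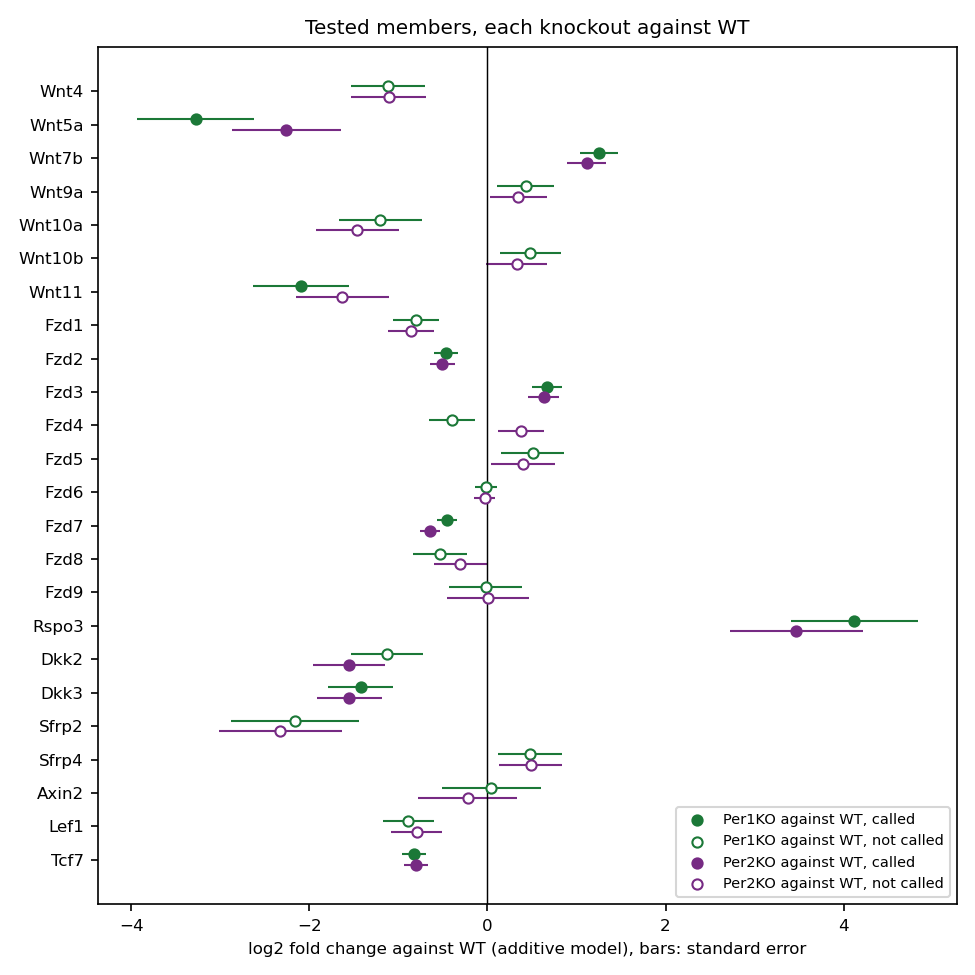
Log2 fold change against WT from the additive model for the 24 tested genes, with bars for the standard error, in Per1KO and Per2KO. Filled points passed an adjusted p of 0.05; Wnt7b, Fzd3 and Rspo3 lie to the right with filled points in both knockouts, and Wnt5a, Dkk3 and Tcf7 to the left.

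Among the ligands, 3 genes made up most of the RNA per length in every library, and their order differed between libraries. CPM per kilobase of merged exon summed over the 19 ligands to 26.6, 31.03 and 35.5 on days 0, 3 and 5 in WT. In Per1KO the sums were 19.1, 32.8 and 51.0, and in Per2KO 16.1, 28.5 and 44.1. In WT, Wnt10a held the largest share of this sum on all days, at 51.9% (Wilson 95% interval 48.0 to 55.8), 55.3% (50.9 to 59.5) and 47.2% (42.8 to 51.6). In both knockouts Wnt7b held the largest share on day 0, at 65.3% (63.8 to 66.7) in Per1KO and 58.2% (56.6 to 59.9) in Per2KO, against 22.5% (19.4 to 25.9) in WT. On day 5 Wnt9a led in the knockouts, with 57.7% (56.5 to 58.9) and 55.4% (54.1 to 56.7), against 35.6% (31.4 to 39.9) in WT. These intervals treat the summed ligand counts of a library as trials and cover counting error only, and there is no test across replicates of a share. The leading ligand of each library was the same when lengths were taken from the longest transcript.

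**Figure D3:**
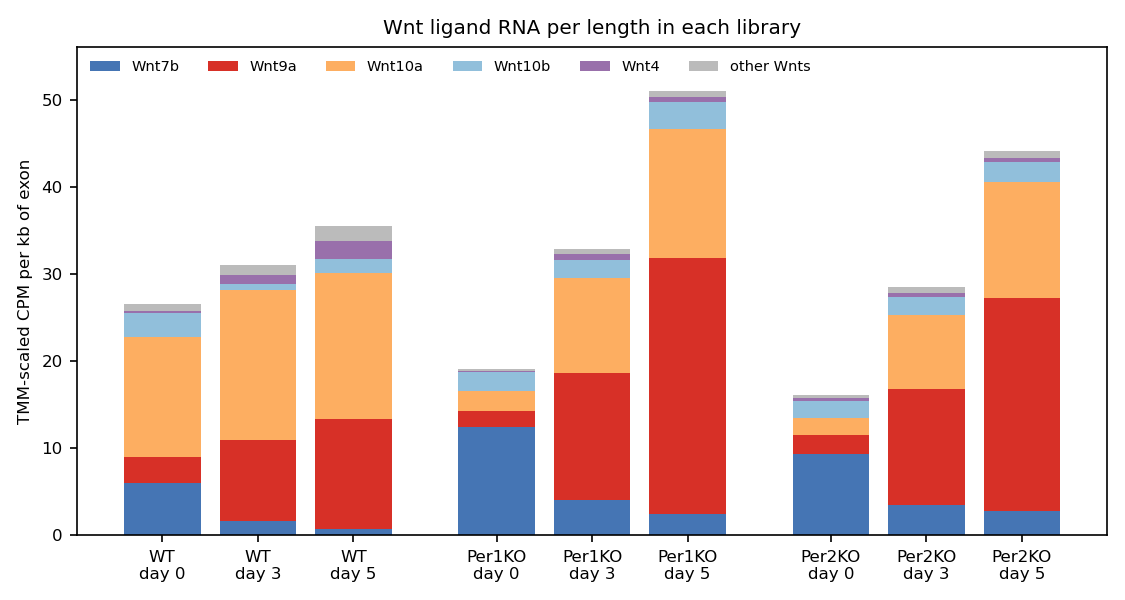
Wnt ligand RNA in each library, as TMM-scaled CPM per kilobase of exon stacked by gene; each bar is 1 library, without replicates. Wnt10a (orange) is the thickest layer in all WT bars, Wnt7b (blue) in the day 0 bars of both knockouts, and Wnt9a (red) in their later bars.

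Wnt7b, a ligand that can act through beta-catenin and through other branches, fell during differentiation and was higher in both knockouts. The gene lies on the minus strand of chromosome 15 (85535437 to 85582473, GRCm38). Wnt7b measured 29.2, 7.84 and 3.52 CPM on days 0, 3 and 5 in WT, 61.0, 19.4 and 11.8 CPM in Per1KO, and 45.9, 16.6 and 13.6 CPM in Per2KO. Within each population the level dropped from day to day, and on every day both knockout libraries lay above the WT library. Against day 0 its level on day 5 was 4.79-fold lower (log2 fold change -2.26 ± 0.21, adjusted p = 0.000127), and this call held under each of the 10 alternatives run. Against WT it was 2.39-fold higher in Per1KO (1.25 ± 0.22, adjusted p = 0.00654) and 2.17-fold higher in Per2KO (1.12 ± 0.22, adjusted p = 0.0108), where the value after ± is the standard error of the log2 fold change, as in the rest of the text. Without day 3 the adjusted p was 0.0900 in Per1KO and 0.113 in Per2KO, and without day 5 it was 0.0773 in Per2KO. The antisense transcript AU022754 overlaps the exons of Wnt7b; it had at most 22 counts in a library, up to 3.05% of the Wnt7b count, and reads of the pair cannot be told apart if strand was not used in counting.

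Wnt9a rose in all 3 populations. This ligand is known for roles in joint and skeletal development, and its gene occupies bases 59306928 to 59333552 of chromosome 11. Wnt9a measured 10.0, 31.2 and 42.0 CPM in WT, 5.92, 48.8 and 97.9 in Per1KO, and 7.11, 44.5 and 81.4 in Per2KO. The WT library was the highest of the 3 on day 0 and the lowest on days 3 and 5. On day 5 the level was 9.81-fold that of day 0 (3.29 ± 0.34, adjusted p = 0.000221), a call that also held under each of the 10 alternatives. Averaged over days, neither knockout differed from WT beyond the spread, with log2 fold changes of 0.43 ± 0.32 (adjusted p = 0.384) and 0.35 ± 0.32 (adjusted p = 0.480).

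Wnt10a, a ligand known for roles in skin, tooth and fat cell development, rose in the knockouts to near the level that WT held from the start. Its gene occupies bases 74791516 to 74804179 of chromosome 1. Wnt10a measured 34.0, 42.3 and 41.3 CPM in WT, 5.80, 27.0 and 36.7 in Per1KO, and 4.78, 21.1 and 32.8 in Per2KO. The day 0 intervals do not meet: 29.9 to 38.6 CPM in WT against 5.15 to 6.51 and 4.20 to 5.42 in the knockouts (exact Poisson 95%). The day 5 rise over all populations was 3.72-fold (1.90 ± 0.48, adjusted p = 0.0140; 0.198 without Per1KO and 0.157 without Per2KO), and the difference in this response between knockouts and WT is given with Axin2 below. Averaged over days, neither comparison with WT passed the threshold (-1.20 ± 0.47 with an adjusted p of 0.112, and -1.46 ± 0.47 with an adjusted p of 0.0666).

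The remaining tested ligands were scarcer. Wnt4, which is known for roles in kidney and reproductive tract development, measured 1.13, 4.01 and 8.36 CPM in WT, 0.771, 2.48 and 2.57 in Per1KO, and 1.36, 1.92 and 1.95 in Per2KO. It was higher on day 5 than on day 0 (1.498 ± 0.40, adjusted p = 0.0168), a call lost without day 3 (adjusted p = 0.0531) and without Per1KO (0.131). Wnt5a, the typical ligand of the branches that do not use beta-catenin, measured 2.12, 2.74 and 1.54 CPM in WT, 0.0608, 0.269 and 0.480 in Per1KO, and 0.118, 0.559 and 1.02 in Per2KO. All 3 WT libraries lay above all 6 knockout libraries. Wnt5a was lower in Per1KO (-3.28 ± 0.66, adjusted p = 0.0120) and in Per2KO (-2.26 ± 0.61, adjusted p = 0.0365); without day 3 the adjusted p was 0.126 and 0.217, and without day 0 it was 0.0872 in Per2KO. From 37 counts in WT against 36 and 75 in the knockouts, the ratio over the 3 days was 0.120 (95% interval 0.0734 to 0.194) in Per1KO and 0.247 (0.165 to 0.377) in Per2KO. On day 5 Wnt5a was called higher than on day 0 (1.81 ± 0.63, adjusted p = 0.0474). That call was lost without day 3 (adjusted p = 0.123) and with either knockout left out. In WT, the Wnt5a level of day 5 was below that of day 0.

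Wnt11, another ligand of the branches that do not use beta-catenin, measured 0.989, 1.28 and 1.76 CPM in WT, 0.466, 0.331 and 0.120 in Per1KO, and 0.532, 0.435 and 0.292 in Per2KO. Each WT library again lay above all knockout libraries, and the ratio of counts over the 3 days was 0.246 (0.144 to 0.431) in Per1KO and 0.333 (0.201 to 0.570) in Per2KO. The difference passed the test in Per1KO (-2.10 ± 0.54, adjusted p = 0.0313) and not in Per2KO (-1.63 ± 0.52, adjusted p = 0.0636). The Per1KO call was lost when the Per2KO libraries were left out. Before scaling, Wnt11 reached 1 CPM only in WT libraries and Wnt5a only in the WT libraries and 1 Per2KO library, so both entered the tested set through the group in which they were high. Wnt10b, a ligand known to hold back fat cell formation, was not called in any comparison and ranged from 2.55 to 10.2 CPM. Of the ligands that were not tested, Wnt2b, Wnt5b and Wnt6 peaked at 1.0996, 1.09 and 1.0996 CPM, each in a WT library and from at most 6 counts there, and Wnt16 at 0.144 CPM.

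Frizzled RNA was dominated by 4 genes, and Fzd2 took the lead with differentiation. Per kilobase of exon the receptors summed to 77.2, 85.2 and 116 CPM on days 0, 3 and 5 in WT, 52.4, 74.0 and 85.7 in Per1KO, and 47.5, 74.1 and 84.8 in Per2KO. On day 0 the largest share belonged to Fzd1 in WT (29.8%, Wilson 95% interval 28.02 to 31.7), to Fzd7 in Per1KO (30.1%, 29.3 to 30.96) and to Fzd6 in Per2KO (26.4%, 25.6 to 27.2), the last of which overlaps the interval of Fzd7 (26.1%, 25.3 to 26.9). On days 3 and 5 Fzd2 led in all 6 libraries, with 37.3% to 42.6%.

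Fzd2, which binds ligands of several branches, measured 71.3, 133 and 158 CPM in WT, 43.4, 106 and 125 in Per1KO, and 38.8, 108 and 125 in Per2KO. It rose in every population between days 0 and 5 (1.45 ± 0.14, adjusted p = 0.000137), under each of the 10 alternatives run. On each day the WT library was the highest. The difference was called in Per1KO at the edge of the threshold (-0.46 ± 0.14, adjusted p = 0.0499) and in Per2KO (-0.51 ± 0.14, adjusted p = 0.0361). Scaling over protein-coding genes alone gave an adjusted p of 0.0598 in Per1KO, and leaving out a single day ended both calls (adjusted p from 0.0644 to 0.221). The Per1KO call was also lost without a filter on low counts, with another filter, with an offset for GC content and transcript length, and without Per2KO.

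Fzd7, a receptor described on muscle stem cells, measured 87.6, 83.9 and 117 CPM in WT, 71.5, 60.6 and 76.7 in Per1KO, and 56.2, 58.1 and 69.1 in Per2KO. The lowest WT library lay above the highest knockout library. It was lower in Per1KO (-0.46 ± 0.11, adjusted p = 0.0269) and in Per2KO (-0.65 ± 0.11, adjusted p = 0.00651), and both calls were lost without day 3 (adjusted p = 0.125 and 0.0589) and without day 5 (0.280 and 0.122). The Per1KO call was also lost without a filter on low counts, with the offset for GC content and length, and without Per2KO. Over differentiation Fzd7 was not called (day 5 against day 0, 0.27 ± 0.11, adjusted p = 0.0810).

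Fzd3, known for guiding axons through the planar polarity branch, went the other way. It measured 11.4, 10.4 and 7.48 CPM in WT, 23.1, 13.2 and 11.4 in Per1KO, and 18.6, 15.2 and 11.6 in Per2KO. The knockout libraries were above the WT library on every day, and all populations were lowest on day 5. Fzd3 was called higher in Per1KO (0.67 ± 0.17, adjusted p = 0.0313) and Per2KO (0.63 ± 0.17, adjusted p = 0.0370) and lower on day 5 than on day 0 (-0.79 ± 0.16, adjusted p = 0.00548). An offset for GC content and transcript length reduced the knockout differences to 0.36 and 0.26 (adjusted p = 0.275 and 0.430), and leaving out a single day gave adjusted p from 0.0595 to 0.227. The Per1KO call was also lost without Per2KO, and the day 5 call with either knockout left out.

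Fzd1, Fzd4 and Fzd6 were called over differentiation and not in either knockout. Fzd1, the closest relative of Fzd2 and Fzd7, measured 96.6, 71.7 and 133 CPM in WT, 39.2, 66.4 and 72.4 in Per1KO, and 31.6, 66.7 and 77.5 in Per2KO, and rose on day 5 (0.85 ± 0.25, adjusted p = 0.0264). Fzd1 lay below WT in both knockouts on every day and narrowly missed the threshold in edgeR's test. The log2 fold changes were -0.80 ± 0.26 in Per1KO (adjusted p = 0.0629) and -0.86 ± 0.26 in Per2KO (adjusted p = 0.0523). Fzd4, the receptor of the eye vessel ligand norrin, measured 5.93, 8.94 and 16.3 CPM in WT, 4.16, 7.72 and 11.7 in Per1KO, and 11.6, 10.5 and 15.1 in Per2KO, and rose on day 5 (1.04 ± 0.25, adjusted p = 0.0106). On day 0 Fzd4 was higher in Per2KO than in either other library. Fzd6, a planar polarity receptor of the skin, measured 54.4, 33.2 and 39.1 CPM in WT, 55.5, 36.0 and 34.1 in Per1KO, and 60.4, 33.1 and 32.8 in Per2KO. It fell in all 3 populations (-0.69 ± 0.12 on day 5, adjusted p = 0.00264), and its log2 fold changes against WT of -0.02 ± 0.12 and -0.03 ± 0.12 were nearer 0 than those of Fzd1, Fzd2 and Fzd7. With a knockout left out day 5 calls ended. The adjusted p was 0.164 for Fzd1, 0.119 for Fzd4 and 0.0657 for Fzd6 without Per1KO, and 0.154 for Fzd1 and 0.0701 for Fzd6 without Per2KO. The call of Fzd4 held without Per2KO, and all 3 calls held without WT.

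Fzd5, Fzd8 and Fzd9 rose together with Fzd2. Fzd5, a receptor with known roles in the gut and eye, measured 11.7, 14.4 and 17.2 CPM in WT, 7.79, 28.9 and 39.2 in Per1KO, and 7.13, 28.9 and 34.0 in Per2KO. WT was the highest library on day 0 and the lowest on days 3 and 5, and the rise on day 5 over all populations was 3.45-fold (1.79 ± 0.36, adjusted p = 0.00498). Fzd8, a close relative of Fzd5, measured 0.565, 2.01 and 2.42 CPM in WT, 0.466, 1.64 and 1.25 in Per1KO, and 0.472, 1.74 and 1.802 in Per2KO, with a rise of 1.75 ± 0.27 on the log2 scale (adjusted p = 0.00143). Fzd8 entered the tested set through libraries of days 3 and 5 only, so this rise was favoured by the filter. Fzd9 measured 1.27, 4.20 and 1.98 CPM in WT, 0.588, 3.77 and 3.92 in Per1KO, and 0.453, 3.97 and 4.46 in Per2KO, with a rise of 2.60 ± 0.40 (adjusted p = 0.00140). Its WT level peaked on day 3 from few counts, while both knockouts kept their level to day 5. Without Per1KO the day 5 adjusted p was 0.0957 for Fzd5 and 0.0524 for Fzd9, and without Per2KO it was 0.0652 for Fzd5 and 0.0515 for Fzd8. Of the 31-base stretches in the longest Fzd5 transcript, 17.3% also occur in other genes, chiefly Gm38058, which overlaps it and had at most 1 count in a library.

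Rspo3 was the only R-spondin to be tested, and nearly all of its RNA was in the knockouts. It measured 0, 0.365 and 0 CPM in WT, 0.406, 3.52 and 2.31 in Per1KO, and 0.118, 2.94 and 1.53 in Per2KO. The WT libraries held 2 counts in total, both on day 3, against 286 in Per1KO and 211 in Per2KO. The ratio to WT over the 3 days was 17.6 in Per1KO (95% interval 4.82 to 146) and 12.9 in Per2KO (3.52 to 107), and on day 3 alone it was 9.65 (2.63 to 80.3) and 8.06 (2.19 to 67.2). The difference was called in Per1KO (adjusted p = 0.00651) and Per2KO (adjusted p = 0.0157). Rspo3 reached 1 CPM in knockout libraries only, so it was tested through the group in which it was high and had to differ, and it could not be tested without day 3, without day 5 or without the other knockout. With 0 counts, the exact Poisson limit in WT was 0.521 CPM on day 0, within the Per1KO interval of 0.248 to 0.626 CPM, and 0.811 CPM on day 5, below the lower bounds of 1.87 and 1.18 CPM in the knockouts. Both knockouts had more Rspo3 on days 3 and 5 than on day 0, and it reached 1 CPM on those later days only. The antisense transcript Gm48159 overlaps the exons of Rspo3, and 12.3% of the 31-base stretches in the longest Rspo3 transcript also occur in it. Its counts were not examined, and reads of the pair cannot be told apart if strand was not used in counting. Rspo1, Rspo2 and Rspo4 were not tested and reached at most 0.880, 1.54 and 0.220 CPM, from 4, 7 and 1 counts in the WT library of day 5, too few to place their highest level.

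Of the 4 tested antagonists, 1 was lower in Per1KO, 2 were lower in Per2KO and none was higher in either, beside 10.1% and 10.6% of all genes called lower. Dkk3, a divergent member of its family whose action on the pathway is disputed, measured 9.46, 15.7 and 36.5 CPM in WT, 2.19, 13.1 and 10.2 in Per1KO, and 1.73, 10.99 and 11.7 in Per2KO. WT was the highest library on each day; between days 3 and 5 it went from 15.7 to 36.5 CPM, while the knockouts stayed between 10.2 and 13.1 CPM. Dkk3 was 2.68-fold lower in Per1KO (-1.42 ± 0.36, adjusted p = 0.0313) and 2.93-fold lower in Per2KO (-1.55 ± 0.36, adjusted p = 0.0224), calls lost without day 0 (adjusted p = 0.0948 and 0.0767) and without day 5 (0.260 and 0.171). The Per1KO call was also lost without a filter on low counts and without Per2KO. On day 5 Dkk3 was 4.93-fold above day 0 (2.30 ± 0.37, adjusted p = 0.00178), under each of the 10 alternatives run.

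Dkk2, which binds LRP co-receptors, measured 31.2, 15.3 and 29.2 CPM in WT, 30.9, 7.64 and 5.45 in Per1KO, and 16.02, 6.75 and 5.63 in Per2KO. On day 5 both knockout libraries lay more than 5-fold below WT, with log2 differences of -2.41 and -2.37 between these single libraries, which have no replicate check. Over the 3 days the difference was called in Per2KO (-1.56 ± 0.40, adjusted p = 0.0333) and not in Per1KO (-1.13 ± 0.40, adjusted p = 0.0912), whose day 0 library was level with WT. The Per2KO call was lost without day 3 (adjusted p = 0.159) and without day 5 (0.106). Dkk2 fell on day 5 over all populations (-1.40 ± 0.40, adjusted p = 0.0236), although the WT library of day 5 was near that of day 0; without day 3 the adjusted p was 0.0774, without Per1KO 0.199 and without Per2KO 0.157.

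Sfrp2, which binds Wnt proteins in the extracellular space, measured 1.27, 1.64 and 15.6 CPM in WT, 0.223, 1.66 and 1.49 in Per1KO, and 0.0394, 1.39 and 2.29 in Per2KO. The WT library of day 5, with 71 counts, stood far above all others. Sfrp2 rose on day 5 (3.78 ± 0.74, adjusted p = 0.00450), and its differences from WT did not pass the threshold (-2.16 ± 0.71 with an adjusted p of 0.0717, and -2.33 ± 0.69 with an adjusted p of 0.0514). Sfrp4, a relative with known roles in bone, measured 2.40, 0.730 and 0.440 CPM in WT, 2.29, 1.18 and 1.47 in Per1KO, and 2.48, 1.30 and 1.24 in Per2KO, and was lower on day 5 than on day 0 (-1.01 ± 0.29, adjusted p = 0.0225). This call was lost without day 3 (adjusted p = 0.0649), with the offset for GC content and length, and with either knockout left out.

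Sfrp1 and Frzb were not tested and were highest in WT. Sfrp1, a close relative of Sfrp2, measured 1.98, 0.547 and 2.64 CPM in WT, 0.0811, 0.124 and 0.0480 in Per1KO, and 0.236, 0.0207 and 0.146 in Per2KO. The lowest WT library lay above the highest knockout library. From 29 counts in WT against 12 and 19 in the knockouts, the ratio was 0.0508 (95% interval 0.0236 to 0.103) in Per1KO and 0.0800 (0.0424 to 0.148) in Per2KO, with no test across replicates. Frzb, another SFRP protein, had 11, 29 and 19 counts in WT, Per1KO and Per2KO, and ratios of 0.324 (0.157 to 0.719) and 0.211 (0.0953 to 0.490). Wif1, which binds Wnt proteins through its own domain, peaked at 1.44 CPM in Per1KO on day 5.

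Tcf7, which encodes the DNA-binding partner TCF1 of beta-catenin, was lower in both knockouts on all days. It measured 59.9, 46.2 and 40.9 CPM in WT, 27.3, 28.9 and 26.3 in Per1KO, and 29.0, 29.1 and 25.9 in Per2KO. All 3 WT libraries lay above all 6 knockout libraries, which differed little among themselves. It was 1.77-fold lower in Per1KO (-0.82 ± 0.13, adjusted p = 0.00502) and 1.74-fold lower in Per2KO (-0.80 ± 0.13, adjusted p = 0.00542); without day 3 or day 5 the differences were as large, from -0.87 to -0.92, with adjusted p from 0.0518 to 0.0660. Tcf7 was not called over differentiation. Lef1, which encodes another such partner, measured 8.90, 12.6 and 9.46 CPM in WT, 8.76, 6.02 and 2.95 in Per1KO, and 7.68, 6.21 and 4.29 in Per2KO. The populations were close on day 0 and apart on day 5, where WT had the highest level. Lef1 fell on day 5 over all populations (-0.86 ± 0.28, adjusted p = 0.0374), a call lost without day 3 (adjusted p = 0.113). This call was also lost with the offset for GC content and length and with either knockout left out. The differences of Lef1 from WT did not pass (adjusted p = 0.0663 and 0.0900) and did pass in both knockouts without day 0 (adjusted p = 0.0150 and 0.0256). The antisense transcript Gm43352, which overlaps Lef1, had at most 24 counts in a library and up to 13.8% of the Lef1 count.

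Axin2, the feedback inhibitor, went up with differentiation in both knockouts and little in WT. Its gene lies on the plus strand of chromosome 11 (108920349 to 108950783). Axin2 measured 4.52, 3.47 and 6.38 CPM in WT, 1.38, 7.16 and 11.6 in Per1KO, and 1.08, 6.52 and 9.06 in Per2KO. On day 0 the knockouts lay below WT, with Poisson intervals of 1.07 to 1.75 and 0.816 to 1.41 CPM against 3.09 to 6.38 CPM. On day 3 they lay above it, with intervals of 6.43 to 7.96 and 5.82 to 7.28 CPM against 2.09 to 5.41. On day 5 Per1KO was above the WT interval of 4.27 to 9.16 CPM and Per2KO, at 9.06 CPM, was inside it. Over all populations Axin2 was 5.15-fold higher on day 5 than on day 0 (2.37 ± 0.55, adjusted p = 0.00986), a call lost without Per1KO (adjusted p = 0.189) or without Per2KO (0.122). Because the differences from WT cross over, the average over days was near 0 (0.04 ± 0.56 in Per1KO and -0.22 ± 0.56 in Per2KO); without day 0 it was 0.93 in Per1KO (adjusted p = 0.0300) and 0.68 in Per2KO (adjusted p = 0.0647).

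The difference in the response itself was tested as the interaction of knockout, either one, with differentiation (days 3 and 5 against day 0). It was called for 3 of the 24 tested members, all with a stronger rise in the knockouts, where 4.95% of all tested genes were called (3.5% with a stronger and 1.45% with a weaker rise). An unadjusted p under 0.05 in this test was found for 11 members, beside 3130 of all 13324 tested genes. Axin2 rose 6.497-fold more in the knockouts than in WT (2.70 ± 0.34, adjusted p = 0.0116), Wnt10a 4.41-fold more (2.14 ± 0.26, adjusted p = 0.0114) and Fzd5 3.25-fold more (1.70 ± 0.22, adjusted p = 0.0122). The calls of Axin2 and Wnt10a held under each of the 10 alternatives run, with log2 values of 2.56 to 2.86 and 1.86 to 2.42. That of Fzd5 kept its size and lost the threshold with either knockout left out (adjusted p = 0.0524 without Per1KO and 0.0596 without Per2KO). Wnt9a (1.45 ± 0.32, adjusted p = 0.0514) and Wnt10b (1.44 ± 0.37, adjusted p = 0.0699) came close to the threshold without passing it. All 3 called members had lower day 0 levels in the knockouts than in WT, as did the myotube and fibroblast marker sums. In the same test 7 of 8 myotube markers were called, among them the embryonic myosin gene Myh3 (5.27 ± 0.47, adjusted p = 0.00624), and 2 of 3 tested fibroblast markers, among them Dcn (2.76 ± 0.35, adjusted p = 0.0119), each with a stronger rise in the knockouts. The part of these markers in the differences was not tested.

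**Figure D4:**
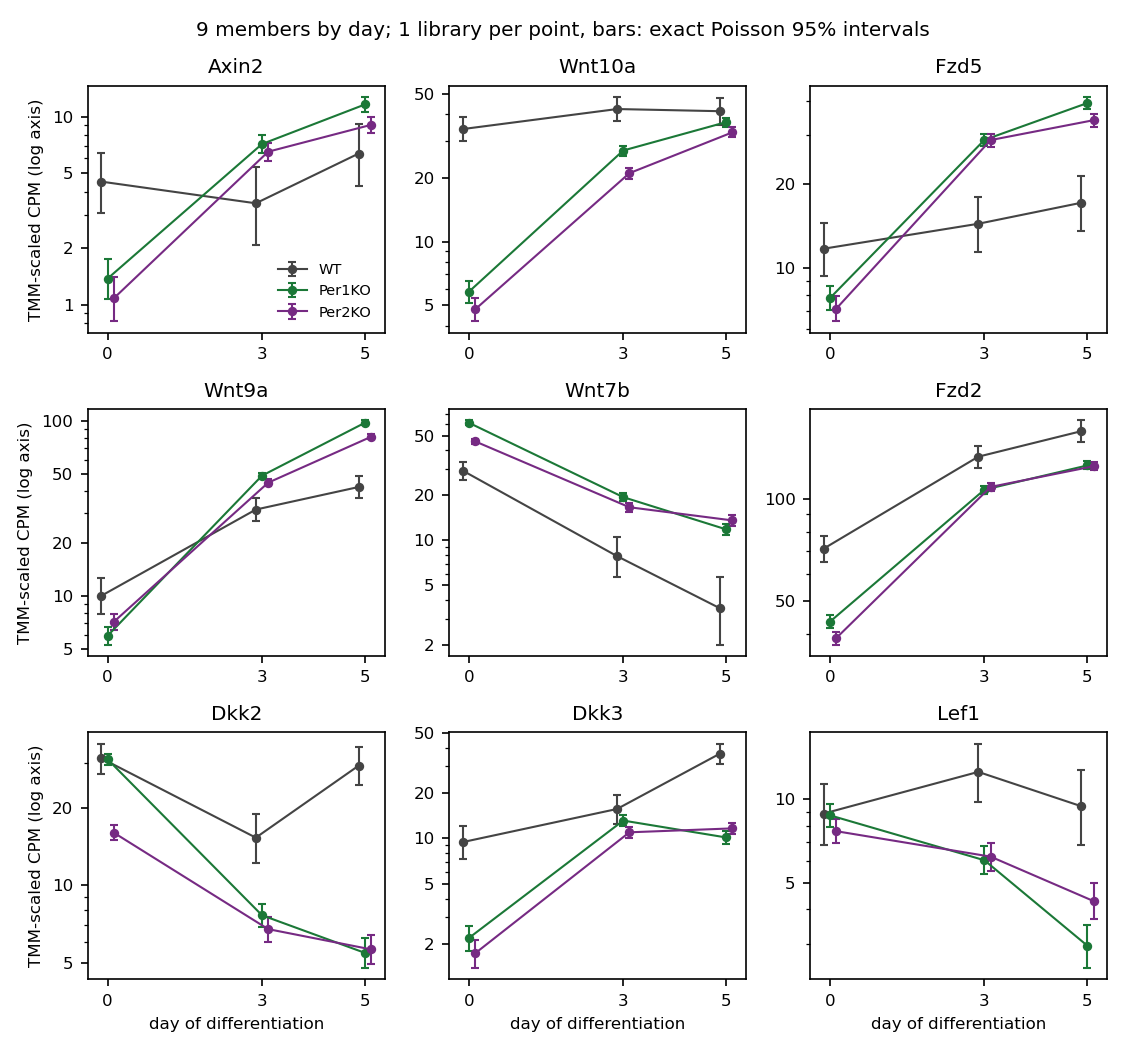
TMM-scaled CPM (log axis, a separate range for each gene) by day of differentiation for 9 genes in WT, Per1KO and Per2KO; each point is 1 library and bars are exact Poisson 95% intervals. For Axin2, Wnt10a and Fzd5 the knockout lines climb from below the WT line on day 0 while the WT line stays nearly flat; for Wnt7b the knockout lines lie above it throughout.

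Across the 9 libraries the log2 CPM of Axin2 ran most closely with that of Fzd5 (Pearson's r = 0.942), Wnt9a (0.915) and Fzd9 (0.868), and most opposite to that of Fzd6 (-0.807), Fzd3 (-0.673) and Wnt7b (-0.645), among the other 23 tested members. These are descriptions over libraries that share their genotypes, days and depths. The promoters of Axin2 and of 2 of these partners are shown because they hold, or lack, the short sequences that the clock and the Wnt pathway are known to use. The letters CACGTG form the E-box sequence bound by the clock activators that PER proteins repress, and CTTTGAA and CTTTGAT are forms of the sequence bound by TCF and LEF proteins. Both strands were searched in windows from RefSeq on GRCm38.p6 that run from 250 bases before to 50 bases after a start site, and capitals mark the E-box letters. The windows are those of Axin2 (chr11:108920099-108920398, plus strand), Wnt9a (chr11:59306680-59306979, plus strand) and Fzd9 (chr5:135250998-135251297, minus strand).
Axin2: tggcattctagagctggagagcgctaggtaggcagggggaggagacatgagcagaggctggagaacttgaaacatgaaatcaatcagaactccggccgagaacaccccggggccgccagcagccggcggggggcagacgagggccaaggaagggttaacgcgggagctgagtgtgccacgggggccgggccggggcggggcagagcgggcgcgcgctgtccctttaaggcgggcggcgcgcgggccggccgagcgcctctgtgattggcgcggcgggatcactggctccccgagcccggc
Wnt9a: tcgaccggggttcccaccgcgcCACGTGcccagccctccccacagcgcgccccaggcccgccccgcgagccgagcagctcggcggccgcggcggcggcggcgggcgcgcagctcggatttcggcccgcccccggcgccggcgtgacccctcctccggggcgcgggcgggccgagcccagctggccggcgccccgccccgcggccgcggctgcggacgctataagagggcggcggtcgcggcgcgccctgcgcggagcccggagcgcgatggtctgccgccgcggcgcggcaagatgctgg
Fzd9: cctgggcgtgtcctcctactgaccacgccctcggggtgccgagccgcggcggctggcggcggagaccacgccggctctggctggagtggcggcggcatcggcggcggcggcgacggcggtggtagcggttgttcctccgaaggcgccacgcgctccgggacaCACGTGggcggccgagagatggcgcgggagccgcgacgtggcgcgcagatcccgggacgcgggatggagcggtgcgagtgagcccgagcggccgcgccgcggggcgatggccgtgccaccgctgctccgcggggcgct
Counted from the start site, the E-box letters begin at position -228 in Wnt9a and -88 in Fzd9, and the Axin2 and Fzd5 windows hold none of the letter sequences searched. Windows were found for 32 of the 46 genes, 39 in all, and none for Wnt10a. The E-box letters were in 5 of the 39 (12.8%), those of Wnt9a, Fzd9, Rspo4, Wif1 and 1 of Lef1, against 7.15% of all 32851 windows. The TCF and LEF letters were in 3 (7.69%), those of Wnt11, Wnt5b and Dkk1, against 8.65% of all windows. The members' windows were rich in G and C, with a median GC content of 67.3% against 52.7% over all windows and a median CpG ratio (observed over that from base composition) of 0.753 against 0.384. A match of letters is a description and not a binding site.

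Within single populations, where no replicate exists, changes of at least 2-fold can be counted side by side. From day 0 to day 5, 9 of 23 compared members passed 2-fold in WT (23.4% of all compared genes), 16 of 22 in Per1KO (26.3%) and 14 of 23 in Per2KO (24.8%). Those that went up numbered 7 in WT (12.4% of all genes), 12 in Per1KO (14.3%) and 12 in Per2KO (13.6%). Those that went down numbered 2 (11% of all genes), 4 (12%) and 2 (11.2%). The median log2 difference of the members was 0.46 in WT, 1.40 in Per1KO and 1.29 in Per2KO, against 0.0075, -0.0035 and -0.0048 over all genes. For Axin2 the single-library log2 difference was 0.49 in WT, 3.02 in Per1KO and 3.00 in Per2KO, and for Wnt10a it was 0.28, 2.65 and 2.76. By day 3, 8 of 23 had passed 2-fold in WT (17.2% of all genes), with 4 up (9.19%) and 4 down (8.01%). In each knockout 13 of 22 had done so by then, 11 up and 2 down, beside 20.1% of all genes in Per1KO (11.4% up, 8.68% down) and 19.7% in Per2KO (11% up, 8.68% down).

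The pairs of a knockout and the WT library of the same day, which share that WT library, leaned to lower levels on day 0. In Per1KO 10 of 21 members differed at least 2-fold on day 0 (15.7% of all genes), 2 higher (7.65%) and 8 lower (8.05%). In Per2KO 8 of 21 did (16.3%), 0 higher (7.73%) and 8 lower (8.61%). On day 3 the Per1KO count was 8 of 24 (16.3%), 5 higher (8.63%) and 3 lower (7.7%), and the Per2KO count was 9 of 24 (17.4%), 3 higher (8.93%) and 6 lower (8.47%). On day 5 Per1KO had 12 of 24 (18.2%), 5 higher (9.02%) and 7 lower (9.14%), and Per2KO 10 of 24 (18.4%), 4 higher (9.31%) and 6 lower (9.08%).

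**Figure D5:**
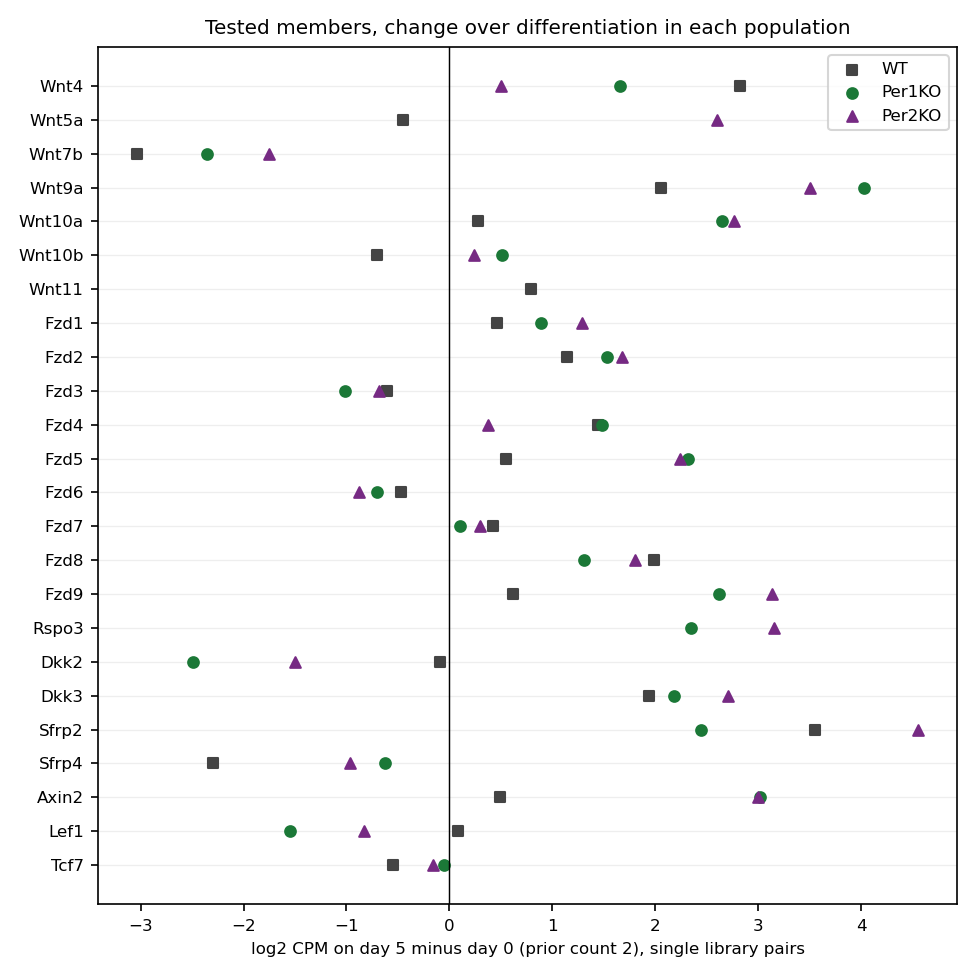
Log2 CPM on day 5 minus day 0 (prior count 2) for the tested genes in WT, Per1KO and Per2KO, each point a pair of single libraries with at least 1 CPM in either. Axin2, Wnt10a, Fzd5 and Fzd9 lie between 2.25 and 3.14 in the knockouts and between 0.28 and 0.62 in WT, while Wnt7b lies at -1.75 or lower in all 3.

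The rest of the pathway was followed in 5 lists. Of the genes for Wnt export and reception, 15 of 23 were tested, and none was called higher in either knockout; 4 were lower in Per1KO and 5 in Per2KO, beside 10.1% and 10.6% of all genes, led by Ror2, a receptor for Wnt5a (-1.80 ± 0.29, adjusted p = 0.00484, and -1.65 ± 0.29, adjusted p = 0.00671). Ror2 measured 2.97, 2.92 and 4.84 CPM in WT against 0.892 to 1.37 CPM in the 6 knockout libraries. Of 25 genes of the beta-catenin core, all tested, 5 were called in Per1KO and 4 in Per2KO, all but 1 in each of them lower, which is near the 19.3% and 19.9% called over all genes; the strongest fall was that of Tcf7l2, another DNA-binding partner, with -1.26 ± 0.36 in both (adjusted p = 0.0446 and 0.0425). The rises were 0.38 ± 0.11 for the kinase gene Gsk3a in Per1KO (adjusted p = 0.0435) and 0.60 ± 0.18 for the tumour suppressor gene Apc in Per2KO (adjusted p = 0.0495). Of the 15 other feedback and target genes, 8 were tested and edgeR's test called 0 in either knockout. An unadjusted p under 0.05 in that test was found for 1 and 2 of them, beside 4661 and 4681 of all 13324 genes. DESeq2's Wald test called 1 and 2 of them, beside 25.5% and 26% of all genes.

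In the planar polarity list, 13 of 16 genes were tested; 4 were lower in each knockout, led by Prickle3 (-2.79 ± 0.40 and -2.62 ± 0.39, adjusted p = 0.00254 and 0.00321), and 1, the GTPase gene Rac1, was higher in Per2KO (0.40 ± 0.12, adjusted p = 0.0457). All 13 genes of the calcium branch were tested, and each knockout had 2 called higher and 3 called lower. In these lists too, 9.26% and 9.31% of all genes were called higher and 10.1% and 10.6% lower. Nfatc3, a calcium-regulated transcription factor, was higher by 0.52 ± 0.14 in both (adjusted p = 0.0348 and 0.0333). The largest falls were those of Nfatc4 in Per1KO (-2.72 ± 0.23, adjusted p = 0.000224) and of the kinase gene Camk2b in Per2KO (-2.65 ± 0.44, adjusted p = 0.00544).

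Over differentiation the counts on day 5 against day 0 were 4 higher and 2 lower for export and reception, 4 and 2 for the core, 3 and 3 for feedback and targets, 2 and 2 for planar polarity, and 4 and 4 for calcium. Over all genes 46.1% were called, so the core, with 6 of 25, and planar polarity, with 4 of 13, lay below that share and export and reception, with 6 of 15, near it. Feedback and targets, with 3 higher and 3 lower of 8, and calcium, with 4 and 4 of 13, lay above that share. Porcn, whose product attaches the lipid that Wnt proteins need for secretion, rose most in its list (3.88 ± 0.15, adjusted p = 7.5e-06), from 7.38 to 12.1 CPM on day 0 to 108 to 155 CPM on day 5. Fst, which encodes the myostatin inhibitor follistatin, rose by 6.31 ± 0.45 on the log2 scale (adjusted p = 4.7e-05), and the cell cycle gene Ccnd1 fell by 2.31 on that scale (SE 0.26, adjusted p = 0.000308). The largest rises of the other lists were those of Pygo1 (1.04 ± 0.22), Daam2 (3.25 ± 0.36) and Camk2a (5.63 ± 0.30), and the largest falls those of Ptk7 (-0.80 ± 0.12), Bcl9 (-0.53 ± 0.15), Vangl1 (-0.53 ± 0.13) and Nfatc2 (-1.63 ± 0.41), with adjusted p from 1.3e-05 to 0.0231. The response differed between knockouts and WT, beside 4.95% of all genes, for 2 genes of export and reception, Kremen1 (0.95 ± 0.20, adjusted p = 0.0433) and Trabd2b, which encodes a Wnt-cleaving protease (-3.36 ± 0.69, adjusted p = 0.0408). Of the core genes edgeR's test called 0 there, with 6 of 25 at an unadjusted p under 0.05, beside 3130 of all 13324 genes. DESeq2's Wald test called 3 core genes, beside 11% of all genes. In the knockouts 2 feedback or target genes responded more strongly, led by Apcdd1 (1.28 ± 0.27, adjusted p = 0.0434), and 2 planar polarity genes did, led by Daam2 (1.57 ± 0.23, adjusted p = 0.0170). In the calcium list Camk2a responded more strongly (1.29 ± 0.28, adjusted p = 0.0483) and Nfatc1 less (-1.02 ± 0.20, adjusted p = 0.0380). Trabd2b measured 5.23, 24.3 and 53.0 CPM in WT, 9.39, 6.83 and 4.71 in Per1KO, and 7.40, 7.20 and 5.07 in Per2KO.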

How the data were processed

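RNA of 9 libraries was measured by sequencing of polyadenylated RNA, made with a TruSeq kit and read as single reads, per the labels' protocols. The table deposited by the authors holds a raw read count for each Ensembl identifier, in whole numbers and without normalization. HISAT2 2.1.0, CASAVA 1.8 and the build mm10 are named in the submitters' processing notes; the counting program, annotation, use of strand and treatment of reads that match several genes are not given in the sources used here. All 9 value columns matched 1 library title each, and 0 further value columns were found. Symbols and positions came from GENCODE M21 on GRCm38 and the gene name table (47224 of 47729 identifiers had a symbol), and promoter windows from RefSeq on GRCm38.p6.

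The 13324 genes that reached 1 CPM, before scaling, in 3 or more libraries were scaled by TMM and tested by quasi-likelihood in edgeR 4.0.16 (with R 4.3.3 and limma 3.58.1, and DESeq2 1.42.0 as an alternative) in an additive model of genotype and day with 4 residual degrees of freedom, or with an interaction term and 3. Calls had a Benjamini-Hochberg adjusted p under 0.05 over all tested genes. Standard errors were derived from the test, as the size of the log2 fold change divided by the square root of the F statistic. The additive model treats days, or populations, as replicates. Single pairs of libraries were compared without a test, by log2 CPM (prior count 2) among genes at 1 CPM in either. Levels per length divide CPM by the merged exon length. The code was tested on simulated data.

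Tested members that were called in any comparison, and Axin2, Lef1 and Tcf7, are given with all values, the others by range. From each pathway list the called genes with the largest rise and fall are named, and from the likeness to Axin2 the 3 highest and 3 lowest. Members, lists and rules were chosen with earlier results of these data known. Promoter letters were chosen likewise. The alternatives were other scalings, filters, DESeq2, an offset for GC content and length, and leaving out each day or genotype in turn.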

Additional observations from a re-analysis of the deposited data

Results flagged for a closer look

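The rise with differentiation differed between the knockouts and WT for 3 of the tested genes, by a test of that difference itself. The log2 difference in response was 2.70 for Axin2, 2.14 for Wnt10a and 1.70 for Fzd5. In the single populations, Axin2 changed on day 5 against day 0 by 0.49 in WT, 3.02 in Per1KO and 3.00 in Per2KO on the log2 scale, Wnt10a by 0.28, 2.65 and 2.76, and Fzd5 by 0.55, 2.32 and 2.25. Depth, what the title suffix of the WT libraries marks, and genotype cannot be told apart in these differences.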

How the results depend on the processing

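Directions held for the 64 named results under DESeq2's size factors, TMM over protein-coding genes, other filters and the GC and length offset, and the calls held for 64, 63, 53 (no filter), 62 (filterByExpr) and 56 of them. Signs turned only for results whose log2 value in the main fit lay from -0.22 (Axin2 in Per2KO) to 0.04 (Axin2 in Per1KO). Axin2 in Per1KO turned to -0.057 under DESeq2's Wald test, -0.46 without day 3 and -0.47 without day 5, and in Per2KO to 0.68 without day 0. Its differences from WT cross over between day 0 and the later days, as given above. On day 3 against day 0, Tcf7 was 0.040 without WT and Lef1 0.044 without Per1KO. The cause of these turns was not tested. In the following, the share of all tested genes that was called stands in brackets. DESeq2's Wald test called 14 of 24 members in Per1KO (25.5%), 14 of 24 in Per2KO (26%) and 5 of 24 in the response (11%), which was also 5 of 40 without a filter (3.44%) and 7 of 21 without day 5 (14.6%). Without day 3 the counts were 1 in Per1KO (6.85%) and 2 in Per2KO (6.22%), without day 5 they were 1 (5.29%) and 0 (5.82%), without the other knockout 3 (10.5%) and 4 (9.43%). Without Per1KO, 3 members were called on day 3 (8.37%) and 6 on day 5 (17.3%), and without Per2KO 4 (10.6%) and 8 (22.2%). Without WT these counts were 17 of 22 (58%) and 19 of 22 (64.6%). Day 5 against day 3 called 1 without day 0 (4.43%) and 3 without WT (10.5%). These smaller fits have fewer samples.

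With at least 5 CPM, members past 2-fold against WT in Per1KO numbered 6 of 15 on day 0 (12.1% of all genes at that level) and 5 of 16 on day 3 (12%), and in Per2KO 4 of 15 (12.8%), 5 of 16 (13%) and 6 of 18 (14.8%) on days 0, 3 and 5. Against day 0 of the same population they numbered 4 of 15 in WT on day 3 (14.5%), 8 of 16 in Per1KO on day 3 (17.8%) and 9 of 16 in Per2KO on day 5 (22.5%). With longest transcripts the share of Wnt10a in WT on day 0 was 46.0%, that of Wnt7b on day 0 was 71.4% in Per1KO and 65.0% in Per2KO, and that of Wnt9a on days 3 and 5 was 41.7% and 55.7% in Per1KO and 43.8% and 53.1% in Per2KO. Over all genes, the calls moved by more than 1.5 times in Per1KO (890 without day 3, 685 without day 5, 1362 without Per2KO) and in Per2KO (807, 753 and 1229), and in the response (1464 by DESeq2, 1893 without day 5, 404 without Per1KO, 240 without Per2KO). For day 3 against day 0 they moved as far, from 4664 to 1091 without Per1KO, 1381 without Per2KO, 2977 without day 5 and 7479 without WT. Day 5 against day 0 moved from 6149 to 2259 without Per1KO and 2895 without Per2KO. Day 5 against day 3 moved from 238 to 0 without Per1KO or without Per2KO. It moved to 370 without a filter, 573 without day 0, 733 by DESeq2 and 1355 without WT. Without a filter the median log2 difference of all genes from WT moved by 0.14 in Per1KO and 0.12 in Per2KO. The number of members detected was 34, or 30 at 1 CPM and 32 above the floor of the shallowest library. Low members in WT rest on few counts, and levels there under about 0.660 CPM were not detectable on every day. Genotypes were compared with day as a term of the model throughout, so libraries of the same day are matched in each of these fits.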

Other observations

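Wls, which encodes the carrier that brings Wnt proteins to the cell surface, was abundant and varied little, from 615 to 830 CPM over the 9 libraries. Ctnnb1, the gene for beta-catenin, ranged from 582 to 758 CPM and the co-receptor gene Lrp6 from 76.6 to 131 CPM. Lgr4, a receptor for R-spondins, ranged from 26.4 to 39.3 CPM, while its relative Lgr5 did not pass 0.440 CPM. Lgr6, another relative, varied more, with 12.7, 17.7 and 17.8 CPM in WT on days 0, 3 and 5. It measured 33.6, 3.56 and 2.88 CPM in Per1KO, and 13.4, 4.74 and 3.87 in Per2KO. Sp5, a direct target of beta-catenin in many tissues, had no count in any library, and Nkd1, a feedback inhibitor, at most 0.0207 CPM. Both belong to the list of 15 feedback and target genes, of which 8 had enough counts to be tested. Among those 8, Apcdd1 ranged from 17.0 to 68.4 CPM and Ccn4 from 200 to 564 CPM.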
